A study of Drosophila melanogaster with 2 samples.

Results

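The genes described here were 53 components of the Wnt, Hedgehog and BMP signalling pathways of Drosophila melanogaster. They were taken by symbol from the Ensembl release 115 annotation of dm6, and all 53 were found among its 13945 protein-coding genes. By role there were 11 ligands, 16 receptors and coreceptors, 18 intracellular transducers and 8 modulators that process or release a ligand or act on it outside the cell. By pathway there were 23 Wnt, 11 Hedgehog and 19 BMP genes, the last including daw and babo of the activin branch. The data were anti-GFP ChIP-seq peak lists from 1 group of whole embryos, 0 to 24 h old and of both sexes, and both replicates came from the same fly line. The embryos came from a transgenic line in which CG9876, a paired-like homeobox gene, is fused to GFP at its C terminus, and the labels give 2 biological replicates with no other genotype, treatment or time. The promoter that drives the fusion is not given in the sources used here. Whole embryos mix all tissues and stages, so no peak can be given to a cell type, and with a single group nothing is compared between conditions or tested.

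Wnt, Hedgehog and BMP ligands are secreted signals that pattern the fly embryo and its imaginal discs. A Wnt signal through Frizzled and Arrow stops the destruction complex of Axin, Apc and the kinase Shaggy, so that Armadillo enters the nucleus and acts with Pangolin. Hedgehog relieves the hold of Patched on Smoothened and thereby turns Ci from a repressor into an activator. BMP ligands join type I and type II receptor kinases that phosphorylate Mad, which enters the nucleus with Medea. These pathways control each other's ligand genes in many tissues.

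The sequences around the summits of 6 of the peaks are shown first. Such a window does not show which of its bases, if any, the tagged protein contacts. They are the strongest peak within 2 kb of a TSS of each promoter-bound gene whose sequence could be shown, the wit peak lying just beyond 1 kb, and the peak near dpp, which held the most TAAT cores of those within 2 kb. Each is the plus strand of dm6 (RefSeq) within 100 bp of the summit, except that of nkd, which is cut to the 102 bases outside annotated UTRs. Capitals mark matches, on either strand, to TAAT (the homeodomain core), GAGAG (the GAGA element), GCCGC (part of the box bound by Mad and Medea) or CTTTGAT (the TCF core bound by Pangolin).
Mad, chr2L:3153330-3153530: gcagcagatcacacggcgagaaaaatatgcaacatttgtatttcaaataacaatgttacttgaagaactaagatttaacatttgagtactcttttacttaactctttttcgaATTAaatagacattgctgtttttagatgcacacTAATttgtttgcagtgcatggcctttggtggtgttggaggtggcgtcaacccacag
sgg, chrX:2646334-2646534: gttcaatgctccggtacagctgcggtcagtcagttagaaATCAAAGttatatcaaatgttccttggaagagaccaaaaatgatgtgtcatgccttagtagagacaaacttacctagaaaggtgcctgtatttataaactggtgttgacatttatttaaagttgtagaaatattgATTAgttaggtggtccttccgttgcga
brk, chrX:7307005-7307205: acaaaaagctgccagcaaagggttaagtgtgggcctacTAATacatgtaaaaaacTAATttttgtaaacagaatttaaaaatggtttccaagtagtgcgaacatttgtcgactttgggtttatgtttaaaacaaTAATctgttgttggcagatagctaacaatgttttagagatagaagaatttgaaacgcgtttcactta
wit, chr3L:4070507-4070707: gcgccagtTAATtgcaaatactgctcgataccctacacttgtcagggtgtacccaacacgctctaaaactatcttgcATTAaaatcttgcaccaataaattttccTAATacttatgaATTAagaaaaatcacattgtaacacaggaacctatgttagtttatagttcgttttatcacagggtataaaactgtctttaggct
dpp, chr2L:2426547-2426747: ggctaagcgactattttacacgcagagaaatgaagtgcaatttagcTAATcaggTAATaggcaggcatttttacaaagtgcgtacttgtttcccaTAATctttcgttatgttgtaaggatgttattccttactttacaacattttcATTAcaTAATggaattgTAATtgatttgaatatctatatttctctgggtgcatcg
nkd, chr3L:19045450-19045551: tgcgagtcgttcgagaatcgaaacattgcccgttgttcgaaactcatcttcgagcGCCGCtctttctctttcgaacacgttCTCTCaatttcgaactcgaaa
The Mad, brk, wit and dpp sequences held TAAT cores and no other searched motif. TAAT lay within 100 bp of 87.2% of the summits of all 2433 reproducible peaks described below, so its presence sets none of these apart. The sgg sequence held 1 TAAT core and 1 TCF core, and the nkd stretch held 1 GAGAG and 1 GCCGC.

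The authors deposited a list of 2433 reproducible peaks and 3 lists of 30000 candidate regions each, from both replicates combined and from either one. Column 7 of these lists is the authors' signal for a region. It ran from 85.4 to 1939.5 over reproducible peaks, with a median of 128.1, and the lowest candidate had 27.2 in the combined list. The replicate lists reached down to 15.9 and 14.8. Signals have no common scale between lists, so replicates are compared by rank within a list, where 1 is the strongest. Read depth is unknown. A gene counts as promoter-bound here when a reproducible summit lies within 1 kb of any of its annotated transcription start sites (TSSs).

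Promoter peaks were found at 6 of the 53 genes (11.3%), against 15.8% of all protein-coding genes. These 6 were the transducer genes Mad, sgg, brk and nkd and the receptor genes smo and wit. No ligand gene (0 of 11) and no modulator gene (0 of 8) was promoter-bound, against 2 of 16 receptor genes (12.5%) and 4 of 18 transducer genes (22.2%). By pathway the counts were 2 of 23 Wnt, 1 of 11 Hedgehog and 3 of 19 BMP genes. By gene length, 2 of 16 genes below 5 kb were bound (12.5%), against 13.5% of all such genes. At 5 to 20 kb 2 of 21 were (9.52% against 22.7%), and at 20 kb and longer 2 of 16 (12.5% against 22.4%). With groups of this size a single gene moves a share by several percentage points, and a count of 0 in 11 or 8 genes is not a measured absence of binding.

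Among transducers, Mad had the highest promoter signal of all 53 genes. Its gene (FBgn0011648) encodes the receptor-activated Smad of BMP signalling, and the peak lay in an intron on 2L (3153320 to 3153506, summit 3153430), 677 bp upstream of the closer of 2 TSSs. The combined signal was 358.8 (rank 126), and the replicates gave 183.3 (rank 158) and 176.5 (rank 126). Both replicates thus placed it among their 200 strongest regions. The sgg gene (FBgn0003371) encodes the GSK3 kinase of the destruction complex and has 11 TSSs over 45.6 kb. Its stronger peak (X, 2646360 to 2646542) lay 203 bp upstream of a TSS and inside an intron of the gene, with a signal of 278.9 (rank 253), 147.6 in replicate 1 (rank 255) and 137.3 in replicate 2 (rank 233). A second sgg peak lay 908 bp downstream of a TSS, with a signal of 115.2, and ranked 2506 in replicate 1 and 870 in replicate 2.

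The gene brk (FBgn0024250) encodes the repressor of Dpp target genes, and its peak (X, 7306920 to 7307289) lay 834 bp upstream of the TSS, within an intron of the neighbour CG1677. The signal was 164.8 (rank 757), with 95.5 in replicate 1 (rank 631) and 67.7 in replicate 2 (rank 1107). The peak of nkd (FBgn0002945), whose product binds Dishevelled and dampens Wnt signalling, lay on 3L (19045266 to 19045635). Its summit was 2 bp from the TSS, the closest of any of the 53 genes. It ranked 1869 in the combined list, with signals of 44.1 (rank 2285) and 48.4 (rank 2221) in replicates 1 and 2. Both replicate ranks were just within the 2433 strongest regions.

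Of the receptor genes, smo (FBgn0003444) encodes the Hedgehog signal transducer of the membrane. Its peak (2L, 277191 to 277560, signal 104.9) lay 206 bp upstream of the smo TSS and 164 bp from that of the neighbour CG17078, in whose 5' UTR the summit fell. The replicate ranks of the smo peak were 2041 and 2121. The BMP type II receptor gene wit (FBgn0024179), which acts at the neuromuscular junction, had a pair of intronic peaks on 3L. The one within 1 kb, 582 bp downstream of the TSS, had a signal of 90.2 and ranked 7926 in replicate 1 and 1213 in replicate 2. The stronger one, 1110 bp downstream (4070422 to 4070791), had 208.6 and ranked 376 and 628. The wit call within 1 kb therefore rested on the weaker peak, which replicate 1 did not place among its 2433 strongest regions.

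**Figure D1:**
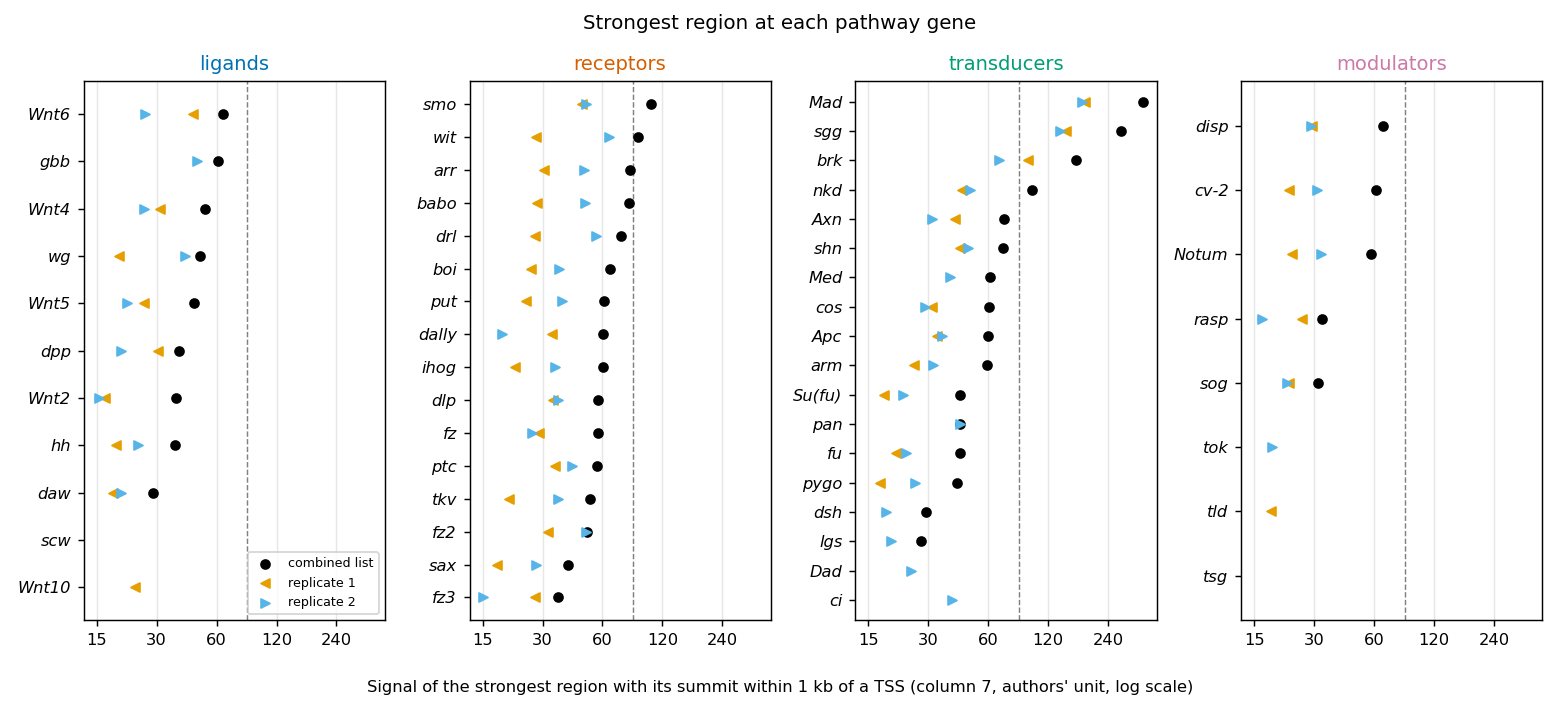
Signal (column 7, log scale) of the strongest region with its summit within 1 kb of a TSS, for each gene by role, in the combined list (black circles), replicate 1 (left triangles) and replicate 2 (right triangles); a missing symbol means no listed region. The dashed line is the lowest signal of a reproducible peak, 85.4, which applies to the combined list; 4 transducers and 2 receptors lie beyond it.

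The counts depended on distance more than they did across all genes. With a 500 bp window 3 of the 53 genes were bound (5.66%, nkd, sgg and smo) against 13.6% of all genes, and with a 2 kb window 13 were (24.5%) against 19.2%. Of the 13 genes bound within 2 kb, 3 (23.1%) had the closest summit within 500 bp and 7 (53.8%) had it between 1 and 2 kb. Across all 2684 genes bound within 2 kb, these shares were 70.5% and 18.1%. The genes thus stood below the background within 1 kb and above it within 2 kb, a crossing that rests on 7 genes and was not tested. The 7 were the ligand genes Wnt5, dpp and gbb, the receptor genes boi and babo, the transducer gene shn and the modulator gene Notum. No BMP gene had a summit within 500 bp, and 7 of 19 had one within 2 kb. The excess of the 53 genes within 2 kb was not seen at every gene length. Below 5 kb the shares within 2 kb were 25% against 16.7% of all such genes. They were 19% against 27% at 5 to 20 kb, and 31.2% against 26.8% at 20 kb and longer.

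**Figure D2:**
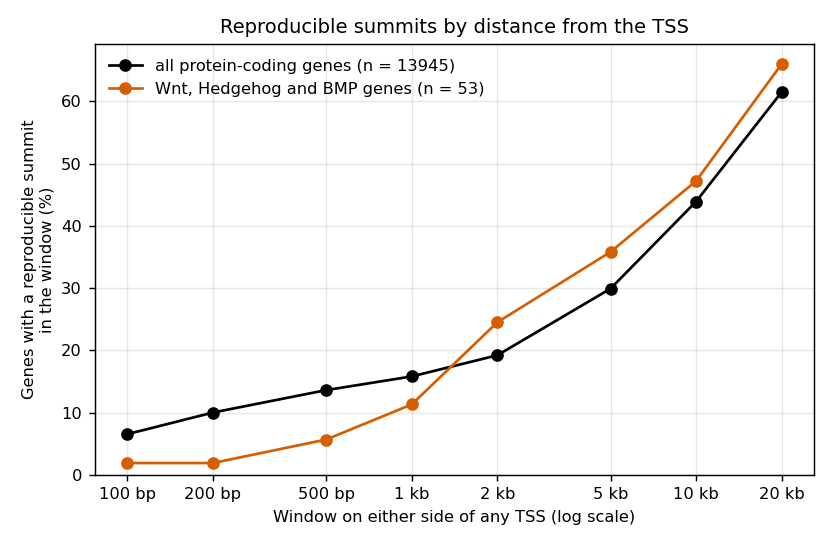
Share of genes (%) with a reproducible summit within a given distance of any TSS (log scale), for the 53 pathway genes and all 13945 protein-coding genes. The pathway genes lie below all genes up to 1 kb (11.3% against 15.8%) and above them from 2 kb (24.5% against 19.2%) to 20 kb (66% against 61.5%).

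Among the ligand genes, gbb, which encodes a BMP ligand used widely in growth and at synapses, lay beside the strongest peak near any of the 53 genes. That peak (2R, 23850261 to 23850538) had a signal of 763.6 (rank 27), with 466.9 in replicate 1 (rank 21) and 298.2 in replicate 2 (rank 39). Its summit was 1170 bp upstream of the gbb TSS but 91 bp from the TSS of eIF6, a ribosome assembly factor gene, and within 1 kb of that of ytr. Within 1 kb of gbb itself the strongest candidate had a signal of 60.9 (rank 4405) and none was listed in replicate 1. The peak nearest to a dpp TSS, which encodes the main BMP ligand of dorsoventral and appendage patterning, lay 1725 bp upstream on 2L (2426462 to 2426831). Its signal was 89.9, with ranks of 2067 and 2507 in replicates 1 and 2. A stronger peak lay in a dpp intron 5238 bp downstream of a TSS (signal 174.6, ranks 630 and 813). The peak at Wnt5, a ligand that guides axons, lay 1906 bp upstream in an intron of Ggt-1 (signal 86.9) and ranked 5664 in replicate 1 and 1428 in replicate 2.

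Among the receptor genes, babo, which encodes the activin type I receptor, had a peak 1168 bp upstream of its TSS (2R, 8950986 to 8951355, signal 180.9, replicate ranks 778 and 524). The TSSs of CG33199 and CG8229 were both nearer, at 85 bp, and Tom7 also had a TSS within 1 kb. The boi peak, at a Hedgehog coreceptor gene, lay in its own intron 1238 bp downstream (X, 2468620 to 2468989, signal 119.5, ranks 1633 and 1132). The shn gene, whose zinc finger product represses brk together with Mad and Medea, held 4 intronic peaks over 58.3 kb and 5 TSSs. Their distances to the closest shn TSS were 1259, 1784, 2414 and 2583 bp, and their signals were 90.5, 147.6, 142.3 and 120.3. Notum, which encodes an enzyme that inactivates Wnt ligands, had a peak 1950 bp upstream (signal 87.2, ranks 3847 and 1983) and one in an intron 2801 bp downstream (121.0). The intronic Notum peak ranked 495 in replicate 2 and lay in no listed region of replicate 1. The transducer gene pan, which encodes the TCF of the Wnt pathway, was just outside the 2 kb window, at 2031 bp. That summit lay outside pan and was nearer to the TSS of another gene.

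Over all 13 genes, 16 distinct peaks lay within 2 kb, 12 upstream and 4 downstream of the pathway gene's closest TSS. The summit was intronic in 11, between genes in 4 and in a 5' UTR in 1. In 13 of the 16 the closest TSS of any protein-coding gene was the pathway gene's own, and the 3 exceptions were the peaks at gbb, babo and smo. Among the 6 genes bound within 1 kb, 5 (83.3%) were the nearest gene to a summit, against 69.1% of all promoter-bound genes.

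Peaks also lay inside the pathway genes, some close to a promoter and some far from one. A reproducible summit lay inside 17 of the 53 genes (32.1%), against 7.42% of all genes. In sgg, Mad, wit and boi these summits were all within 2 kb of a TSS and are among those described above. In Wnt4, fz, arr, dally, dlp, Dad and cv-2 every summit inside the gene was nearer to another gene's TSS. The strongest dlp summit, for example, lay 33515 bp from the dlp TSS and 6321 bp from that of CG43121. The pathway genes were longer, with a median of 10.5 kb against 2.17 kb, and a longer gene has more room for a summit. Among genes of 20 kb and longer, 12 of 16 pathway genes (75%) held one against 33.2% of all such genes. Among genes of 5 to 20 kb the shares were 23.8% (5 of 21) and 15.6%, and among shorter genes 0 of 16 and 2.99%. Per length, the pathway genes held 28.5 summits per Mb (29 in 1.02 Mb) against 14.5 per Mb over all protein-coding genes. None of these differences was tested. Number of TSSs differed less, with a mean of 1.75 against 1.41 and a median of 1 in both.

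**Figure D3:**
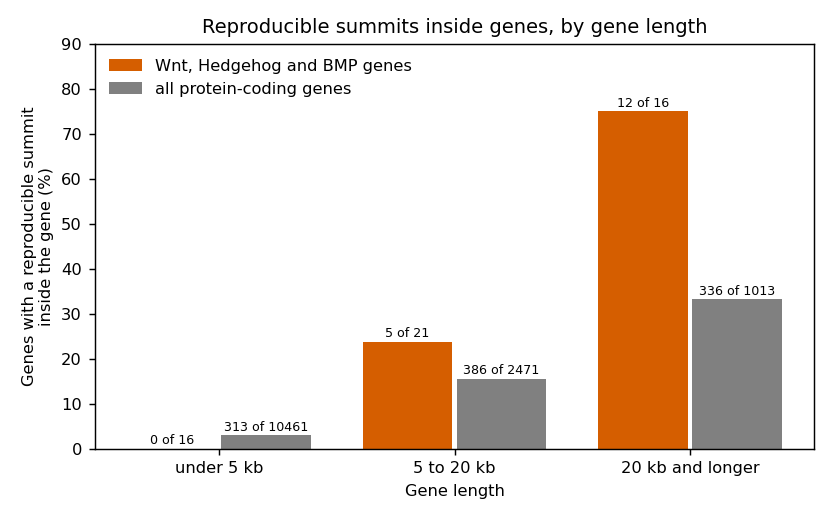
Share of genes (%) with a reproducible summit inside the annotated gene, by gene length, for the pathway genes and for all protein-coding genes, with counts above the bars. In the class of 20 kb and longer, 12 of 16 pathway genes and 336 of 1013 genes hold a summit.

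The receptor genes accounted for 7 of these 17 genes, the transducer genes for 5, the modulator genes for 3 and the ligand genes for 2. These are 43.8% of receptor, 27.8% of transducer, 37.5% of modulator and 18.2% of ligand genes. Receptor genes were also the longest, with a median of 16.9 kb. The medians were 9.29 kb for transducer, 7.94 kb for modulator and 9.11 kb for ligand genes, so role and length are not separated here. The Wnt receptor gene fz, which spans 94.3 kb, held 3 intronic peaks, 29728, 64763 and 91834 bp downstream of its TSS. The first of them (3L, 14303988 to 14304147) had a signal of 247.8 and ranked 370 and 277 in replicates 1 and 2. The glypican gene dlp, whose product spreads Wnt and Hedgehog ligands, also held 3, the strongest (206.0) at 33515 bp with ranks of 563 and 532. The related gene dally had one (93.2), as did arr, the Wnt coreceptor gene (98.5). The arr peak ranked 1347 in replicate 1 and 5251 in replicate 2.

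The Hedgehog receptor gene ptc had a peak on either side of its TSS, 5292 bp upstream (119.6) and 4772 bp downstream (98.4). The downstream one ranked 16439 in replicate 1 and 1173 in replicate 2. Of the BMP modulators, sog, the Chordin homologue, held 2 intronic peaks (175.4 and 125.2) and cv-2 held 2 weak ones (88.9 and 86.6). Dad, the inhibitory Smad gene, had a peak 10288 bp into the gene (178.1, ranks 798 and 589). Wnt4 held 2 peaks in introns (151.2 and 91.1), the stronger one 778 bp from the TSS of CG31909, and another 4451 bp upstream (150.6). The nkd gene held a further peak 20410 bp downstream of its TSS (136.7), higher than the one at its promoter. When each reproducible peak was given to the nearest TSS at any distance, 14 of the 53 genes (26.4%) received a peak against 14.4% of all genes. One of them was lgs on chromosome 4, with a strong peak (343.0, ranks 195 and 130) 19102 bp away between genes.

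**Figure D4:**
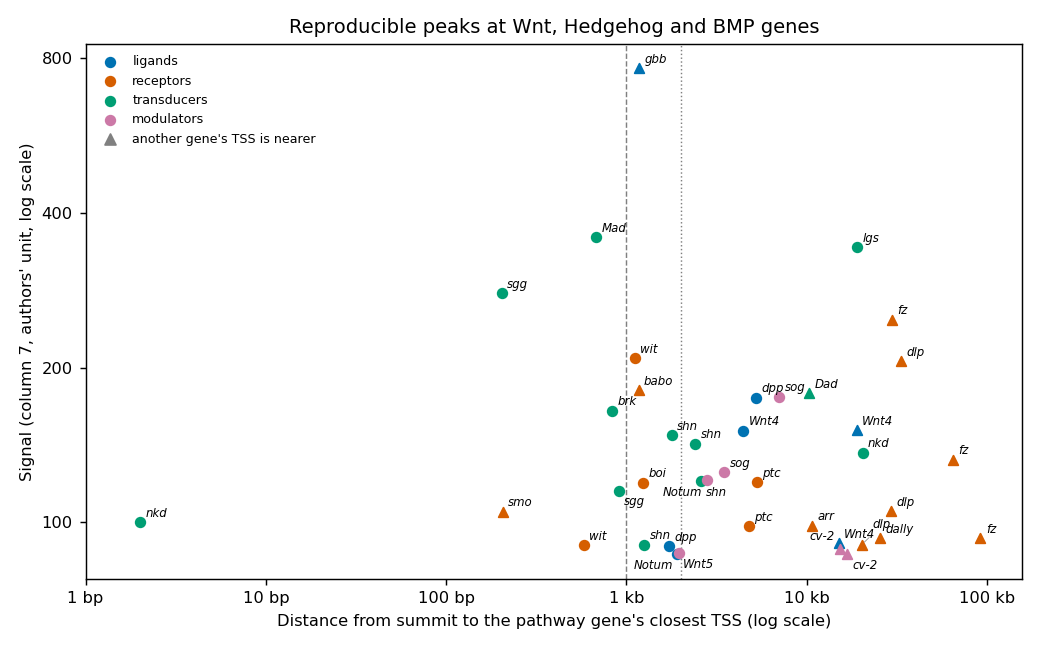
Each reproducible peak that lies within 2 kb of a pathway gene's TSS, inside the gene or nearest to its TSS, by distance to that gene's closest TSS (log scale) and signal (column 7, log scale), coloured by role; triangles mark peaks with another gene's TSS nearer. Dashed and dotted lines are at 1 kb and 2 kb, with 7 points from 6 genes to the left of 1 kb.

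In all, 40 distinct reproducible peaks lay within 2 kb of a TSS of these genes, inside them or nearest to them, and 32 of the 40 summits were intronic. The nearest TSS was that of a pathway gene for 24 of the 40. The median signal of the 40 was 120.7, against 128.1 over all reproducible peaks. Of the 40, 39 lay in a listed region of both replicates, and 23 were among the 2433 strongest regions of both. Another 5 were among the strongest of replicate 1 alone, 10 of replicate 2 alone, and 1 of the 39 in neither. Replicate 2 ranked 23 of the 39 higher than replicate 1 did.

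**Figure D5:**
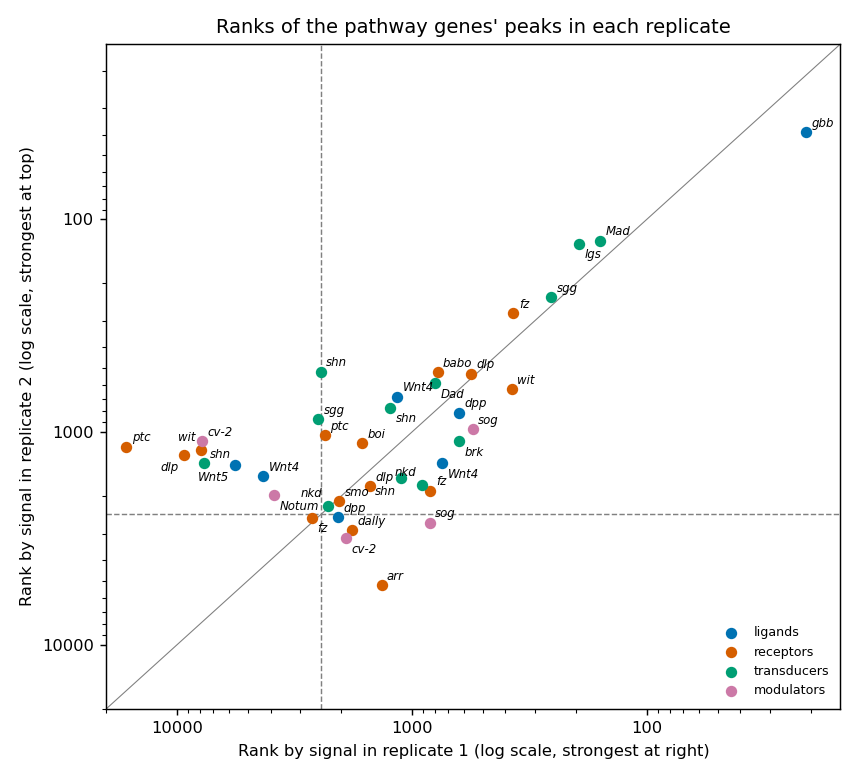
Rank by signal in replicate 1 and replicate 2 (both log scales, strongest at the upper right) of the 39 peaks listed in both replicates, coloured by role. Dashed lines mark rank 2433, and 23 peaks lie within it in both replicates; gbb, Mad, lgs and sgg lie farthest toward the strong end.

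The replicates differed in how many of the genes they bound when each was taken alone. The 2433 strongest regions of replicate 1 bound 7 of 53 genes within 1 kb, against 15.8% of all genes. Those of replicate 2 bound 12, against 15.3%. Both bound nkd, sgg, smo, Mad, brk and shn, which is 6 of the 7 in replicate 1 (85.7%) and 6 of the 12 in replicate 2 (50%). Across all genes 1639 were bound in both, 74.5% of those of replicate 1 and 76.6% of those of replicate 2. Replicate 1 alone bound the Wnt6 promoter, and replicate 2 alone bound fz2, arr, drl, gbb, wit and babo, of which 5 are receptor genes. The transducer genes sgg, Mad, brk, nkd and shn were bound in both, but at shn by a different region in each replicate, so the overlap counts genes and not sites. Among the 41 pathway genes with a candidate within 1 kb in both replicates, the rank correlation of the strongest region was 0.517 (Spearman), against 0.71 over 6317 genes. This describes genes that share the same libraries, and the strongest region need not be the same site in both.

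Weak candidate regions were common at these promoters. The combined list had a candidate within 1 kb of 46 of the 53 genes, against 61.3% of all genes, replicate 1 of 43 against 57.6% and replicate 2 of 49 against 62.1%. All 16 receptor genes had one in each of the 3 lists. The strongest such region ranked 5149 at the median over the 53 genes and 18460 over all genes. Among the 5000 strongest combined regions one lay within 1 kb of 24 genes (45.3%) against 25.9% of all genes. These comparisons were not made by gene length, and the pathway genes were longer (median 10.5 kb against 2.17 kb). They also had more TSSs (mean 1.75 against 1.41), and none of these differences was tested. The median rank was 4462 over receptors and 4616 over transducers, and lower in the list for ligands (13224) and modulators (20889.5), with genes without a region counted as last. The authors name these lists as holding background as well as peaks, so a region in them is not a peak.

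Of the 5 genes just below the reproducible list, 3 were receptor genes, where receptor genes make up 16 of the 53. The cut at 5 genes is arbitrary, and this share was not tested. The strongest regions within 1 kb among genes without a reproducible summit there were at arr (82.3, rank 2572), babo (81.1, rank 2633), drl (74, rank 3062), the scaffold gene Axn (72.1, rank 3205) and shn (71.1, rank 3277). The drl gene encodes a receptor for Wnt5, and its region had 27.5 in replicate 1 (rank 6904) and 55.6 in replicate 2 (rank 1681). The strongest regions at arr and babo likewise ranked higher in replicate 2, arr at 2245 against 5151 and babo at 2144 against 6355. The Axn region went the other way (2576 in replicate 1, 5720 in replicate 2). For shn the replicates' strongest regions were different sites, at -734 bp in replicate 1 (rank 2343) and -140 bp in replicate 2 (rank 2314). Wnt6, the ligand gene with the highest combined signal within 1 kb (64.4), had 45.8 in replicate 1 (rank 2135) and 26.3 in replicate 2 (rank 8572), whereas fz2, a Wnt receptor gene, had 31.9 (rank 4544) and 49.7 (rank 2109). These are the strongest regions within 1 kb in each list, and the summits were apart in the replicates at Wnt6 (-164 and -423 bp), fz2 (622 and -18 bp) and arr (745 and 914 bp). Among the 40 genes with no reproducible summit within 2 kb, 33 had a combined candidate within 1 kb, with signals from 27.4 at lgs to 82.3 at arr and a median of 52.3. These genes included wg (49.6), Wnt2 (37.6), hh (37), fz2 (49.9), tkv (51.7), put (61), arm (59.2), dsh (29.3), Apc (59.9), cos (60.6), fu (43.1), Su(fu) (43.3) and Med (61.5). No combined region lay within 1 kb of Wnt10, ci, scw, Dad, tsg, tld or tok. For scw and tsg, a BMP ligand gene and a BMP cofactor gene of the early embryo, no list had one. The 3 members on chromosome 4, pan, lgs and ci, had a region within 1 kb in replicate 2 and none in replicate 1. In the combined list 2 of them, pan and lgs, had one. No share over all genes of chromosome 4 is given here, so whether this is particular to the 3 was not tested.

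The homeodomain core was present under most of the peaks. TAAT occurred within 100 bp of 13 of the 16 summits within 2 kb, and of 87.2% of all 2433 summits, so that its presence sets no peak apart. The 3 windows without it were at nkd, smo and gbb, whose summits lay 2, 164 and 91 bp from the closest TSS of any gene. The babo summit, 85 bp from a TSS, did have 1 TAAT in its window. The longer homeodomain site TAATTA, which contains TAAT, occurred at none of the 16 and at 3 of the 40, in dally, dlp and shn, against 11.3% of all summits. The P3 site of paired-class dimers occurred at 1 of the 40, in dlp, against 1.52%. The promoter element DRE (TATCGATA) occurred at the gbb peak alone, against 6.04% of all summits, and Ohler motif 1 (GGTCACACT) at the smo peak alone, against 2.38%. GCCGC occurred at 6 of the 40 against 22.4%, GAGAG at 7 against 25.7%, the E-box CACGTG at 1 against 3.21%, the TCF core at 2 against 2.71% and the Ci core GGGTGGTC at none against 0.288%. All motifs were sought on both strands, and a missing match says only that these letters are not in the window. The median GC content was 37.5% over the 40 windows and 38.8% over all.

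The promoters of other pathway genes were counted beside them. Of 40 further Wnt, Hedgehog and BMP pathway genes, 15 were bound within 1 kb (37.5%) against 15.8% of all genes, and 10 of these had a summit within 500 bp. This list, like the 53, was chosen with earlier results of these data known, so its share may reflect that choice. Its differences from the 53 and from all genes were not tested. Whether another gene's TSS lay nearer to the summits at the 15 is not given here, nor are shares by gene length. The highest signals were at Gprk2, a kinase gene that acts on Smoothened (854.2, rank 16, with 485.6 and 374.8 in replicates 1 and 2), and gish, a casein kinase gene (580.1, with 271.4 and 314.8). The corepressor gene gro followed (344.5), then dco, another casein kinase gene (286.9), and rdx, whose product targets Ci for degradation (286.7). The other 10 were skd (146.4), ttv (134.5), CkIalpha (134.4), nej (112.6), slmb (111.7), CtBP (108.1), otk (105.6), myo (94.6), sotv (92.8) and srw (87.8). Of 21 target genes of the pathways, 3 were bound (14.3%), namely the BMP targets ush (200.0), Ance (97.5) and pnr (87.3). The Ance and myo peaks lay in no listed region of replicate 1.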

How the data were processed

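Anti-GFP ChIP-seq was done in 2 biological replicates of CG9876-GFP embryos, per the labels. The authors deposited region lists in narrowPeak form, in dm6, whose column 7 is a signal per region made against a control. Each replicate list came from its own alignments, the combined list from those of both, and the reproducible list from these 3 by irreproducible discovery rate, per the text deposited with them. The 2433 strongest combined regions bound as many genes as the reproducible list within 500 bp (1892), 1 kb (2199) and 2 kb (2684). Some reproducible peaks, as at Notum, Ance and myo, lay in no listed region of replicate 1. Which aligner and peak caller were run, how, and at what depth is not given in the sources used here, so no counting interval can be given. The dm3 lists were not used here.

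Summits were set against the TSSs of protein-coding transcripts (Ensembl release 115, 19607 gene and TSS pairs on 6 arms), counting from 1, and upstream or downstream refers to the gene's closest TSS. All regions fitted within the RefSeq dm6 arms. Assignment was tested on simulated data with planted summits. Members, roles and lists were chosen with earlier results of these data known. Genes with a reproducible summit within 2 kb are given in full, those with summits inside or nearest, or among the strongest of a list, with values, and the others by range. Of the further lists, swim and omb were not found by symbol. Alternatives covered windows, whole-region overlap, nearest TSS, stricter and longer lists and each replicate alone; canonical TSSs were added after the data were seen. Computation ran in numpy 2.4.6 and pandas 2.3.3 under Python 3.11.15, with plots in matplotlib 3.10.9.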

Additional observations from a re-analysis of the deposited data

How the results depend on the processing

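The count of promoter-bound genes among the 53, 6 within 1 kb, was 3 within 500 bp, 13 within 2 kb, 14 by nearest TSS at any distance, 3 among the 1216 strongest reproducible peaks and 24 in the 5000 strongest combined regions. The strongest regions of a single replicate gave 7 and 12. For ligands (0) the values were 3 within 2 kb, 3 by nearest TSS and 2 in the 5000 strongest, and 1 in either replicate alone. For receptors (2) they were 1 within 500 bp, 4 within 2 kb, 1 by nearest TSS within 1 kb, 0 among the 1216 strongest and 9 in the 5000 strongest, and 1 and 6 in replicates 1 and 2 alone. For transducers (4) they were 2 within 500 bp and 10 in the 5000 strongest, and 5 in either replicate alone. For modulators (0) they were 1 within 2 kb, 2 by nearest TSS and 3 in the 5000 strongest. Other counts were within 1.5 times the value given, including those with canonical TSSs only. The median rank of the strongest region within 1 kb, 5149, was 11981 within 500 bp, and 5877 and 8804 in replicates 2 and 1 alone. At single genes the 2 kb window moved the strongest rank from 4405 to 27 at gbb, 2239 to 462 at wit, 2633 to 629 at babo and 13224 to 2251 at dpp. Over the 13 genes with a summit within 2 kb, 20 of 61 ranks moved by more than the SD of the gene's replicates. That SD comes from the same 2 ranks that the single-replicate settings use, so the count partly tracks replicate agreement. It was narrow where these ranks were close, as at nkd (2285 and 2221), and wide at boi (8070 and 4007). The 2 kb moves at gbb, wit and babo are not among the 20. Nor are those at Notum (4879 to 2359) and boi (3822 to 1389). A wider window or a longer list can only add genes; the cause of the difference between replicates was not tested. Unknown depth and 2 replicates limit every count. No paired analysis was possible because there was only 1 group.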
